A study of Homo sapiens with 8 samples.

Results

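The genes described here are 40 components of the plasma membrane repair and ESCRT machinery, out of 28395 genes in the deposited table. They were taken from a list by gene symbol, with no threshold on a measured value, but the list was drawn up when earlier results of these data were known. It holds the 3 genes of ESCRT-0, 5 of ESCRT-I, 3 of ESCRT-II, 12 of ESCRT-III, the 3 genes of the VPS4 complex, the pair ALG-2 (PDCD6) and ALIX (PDCD6IP), 3 calcium sensors of membrane fusion (DYSF, MYOF, SYT7), 2 EHD proteins, the 3 genes of the conventional calpains and 4 genes of the caveolar coat. All 40 were found in the table and all 40 passed the filter on low values, a normalised read count of at least 10 in at least 2 libraries, which left 14040 genes for testing.

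A tear in the plasma membrane lets calcium into the cell. Annexins bind the exposed membrane edges in response, ferlins and synaptotagmin VII promote fusion of internal vesicles with the surface, and calpains cut the cortical skeleton and some repair proteins. ALG-2 binds calcium and recruits ALIX, which brings ESCRT-III filaments to the wound, where the ATPase VPS4 remodels them and the damaged membrane is shed. The same ESCRT complexes sort ubiquitinated receptors into endosomal vesicles and cut the last membrane bridge between dividing cells, while caveolae flatten under tension and can be taken up from wounded membrane. ANXA4, the gene targeted in this study, belongs to the annexin family that acts at these wounds.

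Poly(A) RNA was sequenced from A-498, an established kidney cancer cell line, grown for 24 h to a non-confluent layer in RPMI medium with 10% FCS. The 2 control lines labelled wild type carried different non-targeting guide RNAs (sgRNA-1 in control line 1, sgRNA-2 in control line 2), and the 2 lines labelled ANXA4 knockout carried different ANXA4 guide RNAs (sgRNA-1 in the KO guide 1 line, sgRNA-2 in the KO guide 2 line). Each line gave 2 libraries, numbered replicate 1 and replicate 2, for 8 libraries in all. The labels do not say whether a line was a clone or a pool, so guide and line cannot be told apart, nor whether the replicates were separate cultures, so p-values measure only the spread between these libraries.

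The libraries held 15784890 to 22631588 reads. Values below are normalised read counts, reads divided by a size factor for each library, and are given in the order replicate 1, replicate 2. ANXA4 checked the labels: it stood at 2821 and 3614 for control line 1, 3858 and 6773 for control line 2, 235.6 and 234.4 for the KO guide 1 line, and 3433 and 4142 in the KO guide 2 line. ANXA4 RNA was therefore low in the KO guide 1 line alone. The other is called the KO-labelled guide 2 line throughout, since its ANXA4 RNA was not low. The RNA level alone does not settle whether that label is right. All 7 markers of renal epithelium and renal carcinoma were detected above 10 reads in some library, whereas none of 4 leukocyte, 3 endothelial and 3 skeletal muscle markers was. Of 4 fibroblast markers, COL1A1 and PDGFRB were above 10 reads, and the summed level of the 4 ran from 553.2 to 1429 in the control libraries and from 179.3 to 515.5 in the KO-labelled ones. The part of this difference in the results on repair genes was not tested. In these bulk samples, fewer cells of a type and less RNA per cell cannot be told apart.

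Most of the machinery was expressed at similar levels in all 4 lines, and a few genes accounted for the larger differences. The range of the 4 line means, on the log2 scale, had a median of 0.44 over the 40 genes and 0.55 over all 14040 genes tested. It was under 0.5 for 24 of the 40 genes (60%, against 44.7% of all genes). The SD between libraries of a line was lower too, with a median of 0.15 over the 40 genes and 0.21 over all genes. Whether the range was narrow beyond this lower spread was not tested. The narrowest ranges were CAVIN1 at 0.09, VPS37C at 0.10, HGS at 0.13 and VTA1 at 0.14. The range exceeded 1 for 4 genes: EHD1 at 1.08, VPS37A at 1.30, SYT7 at 1.70 and DYSF at 4.99. These 4 are 10% of the list, beside 19.6% of all genes. The heat map of the 40 genes shows DYSF, VPS37A and SYT7 as the rows with the strongest colours.

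**Figure D1:**
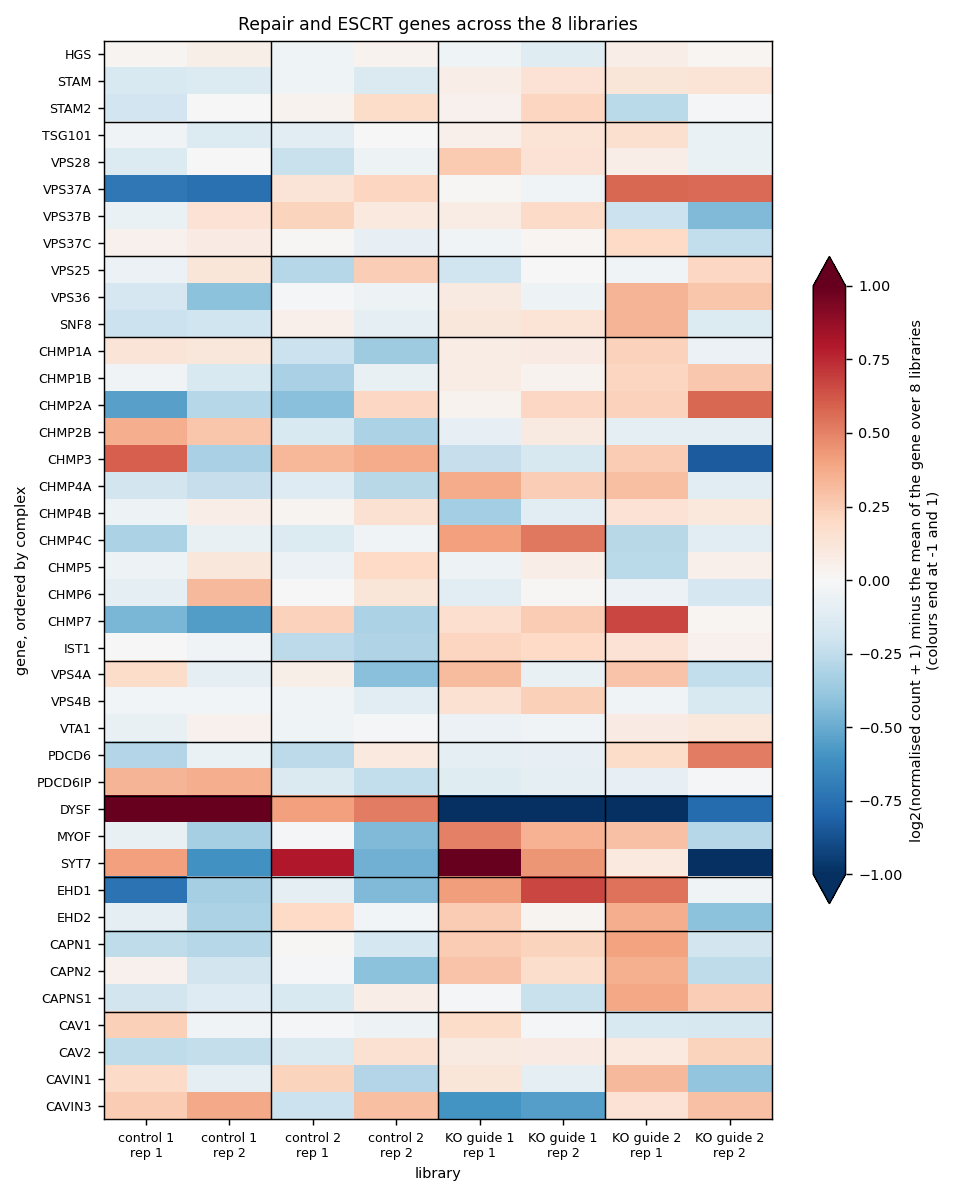
Each row is 1 of the 40 genes, ordered by complex, and each column 1 of the 8 libraries. Colour is the log2(normalised count + 1) minus the gene's mean over the 8 libraries, with colours ending at -1 and 1. DYSF is high in control line 1 and low in both KO-labelled lines, and VPS37A is low in control line 1 and high in the KO-labelled guide 2 line.

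Differences were tested with limma on log2(value + 1), with p-values adjusted over all 14040 genes, and a gene is called at an adjusted p under 0.05. With the 4 KO-labelled libraries set against the 4 control libraries and the libraries of a line treated as correlated, 0 of the 40 genes were called by limma, beside 0.235% of all genes. At an unadjusted p under 0.05 there were 6 of 40, beside 11.5% of all genes. Fits that give each line its own mean and treat its libraries as independent called more: 3 of 40 with limma and with edgeR (10.5% of all genes for both) and 7 of 40 with DESeq2 (12.6%). The lowest p-values belonged to DYSF (log2 fold change -3.41, SE 0.74, limma adjusted p = 0.109), EHD1 (0.80, SE 0.23, adjusted p = 0.199) and CHMP4A (0.41, SE 0.16, adjusted p = 0.374). The median log2 fold change was 0.14 over the 40 genes, 24 above 0 and 16 below, and 0.00 over all genes. The 4 KO-labelled libraries all stood above the 4 control libraries for 5 genes (STAM, EHD1, CHMP4A, IST1 and CHMP1B), beside 5.11% of all genes, and all below for 1 (DYSF), beside 5.51%.

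Each KO-labelled line was then set against both control lines, which these 2 comparisons share. In the KO guide 1 line 4 of 40 genes were called, beside 7.01% of all genes: EHD1 and CHMP4C were higher (3.82% of all genes), and DYSF and CAVIN3 were lower (3.18%). In the KO-labelled guide 2 line there were 3 of 40, beside 11.2%: VPS37A and VPS36 were higher (4.54% of all genes), and DYSF was lower (6.67%). Both counts are near what the shares of all genes would give. The median log2 fold change of the 40 genes was 0.17 in the KO guide 1 line and 0.09 in the KO-labelled guide 2 line, where both medians of all genes were within 0.01 of 0.

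The lines of each arm were also compared with each other. Between control line 2 and control line 1 limma called 1 of 40 genes, beside 2.13% of all genes: VPS37A was higher (1.05%). Between the KO-labelled guide 2 line and the KO guide 1 line it called 3 of 40, beside 6.94%: CAVIN3 and VPS37A were higher (2.41% of all genes), and CHMP4C was lower (4.53%). With equal library totals in place of the size factors, VPS37A was not called in the latter comparison, and the split changed from 2 higher and 1 lower to 1 and 1. With the replicate number added to the fit as a block, these counts grew, as did those of all genes. The blocked counts were 12 of 40 for the KO guide 1 line (24.4% of all genes), 12 of 40 for the KO-labelled guide 2 line (27.4%), 5 of 40 between the control lines (12.5%) and 9 of 40 between the KO-labelled lines (24.5%). It left the comparison of the arms at 0 of 40 (0.264%). Between the KO-labelled lines the block added CAPNS1, CHMP4B and PDCD6 as higher and MYOF, SYT7 and VPS37B as lower in the KO-labelled guide 2 line.

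**Figure D2:**
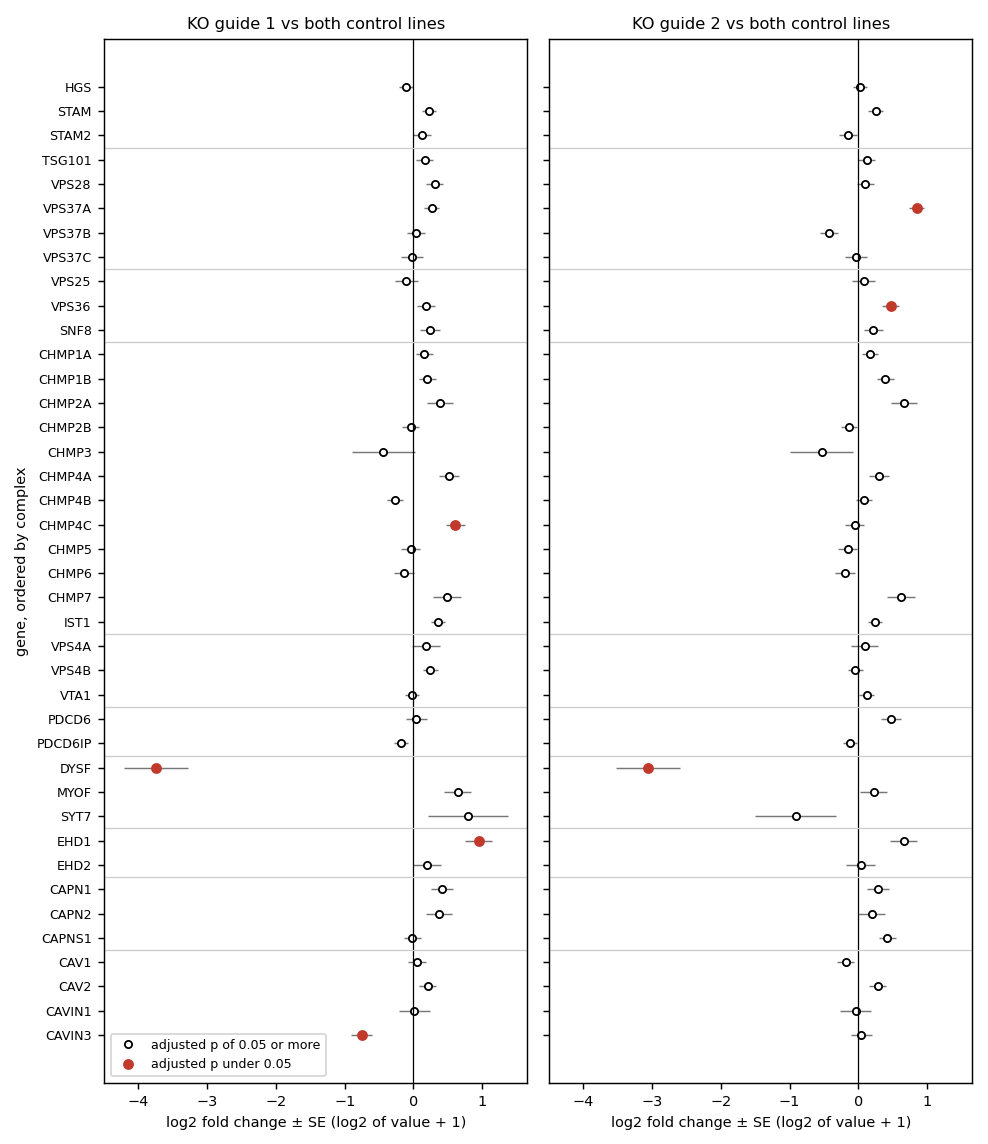
Log2 fold change (log2 of value + 1) with its SE for each of the 40 genes in the KO guide 1 line (left) and the KO-labelled guide 2 line (right), each against both control lines; filled points have an adjusted p under 0.05. DYSF lies near -3.75 and -3.06, and most other genes lie within 1 of 0.

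The ferlins and synaptotagmin VII include the genes with the widest ranges of line means, DYSF and SYT7. DYSF encodes dysferlin, the ferlin whose loss causes a muscular dystrophy and which brings vesicles to membrane wounds. Its normalised read counts were 53.3 and 66.6 for control line 1, 9.46 and 10.2 for control line 2, 0.783 and 1.04 for the KO guide 1 line, and 1.03 and 3.62 for the KO-labelled guide 2 line. All 4 KO-labelled libraries were below all 4 control libraries, and control line 2 was itself well below control line 1. DYSF fell by 3.75 on the log2 scale in the KO guide 1 line (SE 0.47, limma adjusted p = 0.00301) and by 3.06 in the KO-labelled guide 2 line (SE 0.47, adjusted p = 0.00529). Both calls held in all 8 fits that left out 1 library. DYSF passed the filter on low values only through control libraries, where it was high, so its entry into the test was not independent of the difference. Without that filter limma called it lower in both lines as well. The size of these changes rests on few reads and on the pseudocount: from -4.76 to -1.77 over the alternatives in the KO guide 1 line, and from -3.65 to -1.60 in the KO-labelled guide 2 line.

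The DYSF reads themselves numbered 122 in control line 1, 20 in control line 2, 2 in the KO guide 1 line and 4 in the KO-labelled guide 2 line, over both libraries of each line. Scaled for size factors, DYSF was 66.7-fold lower in the KO guide 1 line than in control line 1 (95% interval 18.1 to 557, exact, counting error only) and 10.96-fold lower than in control line 2 (2.66 to 96.7). The line labelled KO guide 2 was 26.7-fold lower than control line 1 (10.2 to 99.6) and 4.39-fold lower than control line 2 (1.47 to 17.7). Between the controls, control line 2 was 6.09-fold lower than control line 1 (3.77 to 10.3), a difference that missed the limma threshold (log2 fold change -2.48, SE 0.54, adjusted p = 0.0549). That last difference was called with the replicate block, at an adjusted p of 0.0102, with edgeR, with DESeq2 and with a pseudocount of 10. It was also called without either library of the KO-labelled guide 2 line. Its adjusted p ran from 0.00712 to 0.356 over the 17 alternatives.

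The DYSF promoter is shown because this gene had the largest fold change of the list in both KO-labelled lines, and the EHD1 promoters because EHD1 had the largest increase among the called genes. The sequences are the 250 bases before the start site in RefSeq's promoter windows (build GRCh38.p14), 5′ to 3′ on the gene's strand. Capitals mark GGGCGG, the GC box bound by SP1-family factors, or its reverse complement CCGCCC. DYSF lies on the plus strand at chr2:71453311-71453560, and EHD1 on the minus strand with an upstream start, chr11:64879694-64879943, and a downstream start, chr11:64878622-64878871.
DYSF: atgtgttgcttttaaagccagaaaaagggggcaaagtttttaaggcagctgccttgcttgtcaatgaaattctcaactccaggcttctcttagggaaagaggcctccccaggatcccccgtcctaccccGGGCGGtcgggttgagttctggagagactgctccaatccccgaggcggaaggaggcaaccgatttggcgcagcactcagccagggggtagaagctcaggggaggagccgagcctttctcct
EHD1 upstream: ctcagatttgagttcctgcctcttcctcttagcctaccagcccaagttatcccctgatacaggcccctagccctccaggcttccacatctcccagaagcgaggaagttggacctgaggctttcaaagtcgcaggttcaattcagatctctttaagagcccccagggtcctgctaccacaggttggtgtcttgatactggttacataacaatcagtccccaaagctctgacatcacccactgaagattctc
EHD1 downstream: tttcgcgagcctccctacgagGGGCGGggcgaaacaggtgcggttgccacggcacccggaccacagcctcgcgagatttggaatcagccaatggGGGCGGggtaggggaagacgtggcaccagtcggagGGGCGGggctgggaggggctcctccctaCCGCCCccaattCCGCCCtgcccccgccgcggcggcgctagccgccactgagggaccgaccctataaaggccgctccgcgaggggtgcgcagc

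The DYSF window held 1 GC box, at position -121 from the start, and no TATAAA. The upstream EHD1 window held none of either, and the downstream one held 5 GC boxes and a TATAAA at position -31. Gene counts do not tell which start was used. RefSeq's table had windows for 30 of the 40 genes, 40 windows in all, each running from 250 bases before to 50 after a start. GGGCGG on either strand was in 28 of these 40 windows (70.0%), beside 45.0% of all 35116 windows of that length. TATAAA on either strand was in 1 (2.50%), beside 11.5%, and CCAAT in 11 (27.5%), beside 34.6%. The median GC content was 67.7% in these windows and 58.7% in all, and the median number of CG dinucleotides was 28 and 14. Not in the table were VPS28, VPS37A, VPS37C, CHMP3, CHMP4C, CHMP6, CHMP7, SYT7, CAVIN1 and CAVIN3.

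MYOF encodes myoferlin, the ferlin of many epithelial and cancer cells, and it made up nearly all ferlin RNA here. Per kilobase of transcript, MYOF was 99.3% to 100% of the sum of DYSF and MYOF in every library. Its normalised read counts were 10634 and 8912 for control line 1, 11151 and 8256 for control line 2, 15883 and 14295 for the KO guide 1 line, and 13743 and 9224 for the KO-labelled guide 2 line. Both KO guide 1 libraries were above all controls, and the last library overlapped them. The KO guide 1 line differed from the controls by 0.64 on the log2 scale (SE 0.19, limma adjusted p = 0.0822), and this was called with the replicate block (adjusted p = 0.00143), with DESeq2 and without either library of the KO-labelled guide 2 line. Over the 17 alternatives its adjusted p ran from 0.00143 to 0.383.

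SYT7, synaptotagmin VII, the calcium sensor of lysosomal exocytosis, was read at low levels: 68.0 and 33.3 for control line 1, 89.5 and 36.3 for control line 2, 119 and 69.5 for the KO guide 1 line, and 54.8 and 13.3 for the KO-labelled guide 2 line. Replicate 1 was the higher library in each of the 4 lines, and the arms overlapped. With all 8 libraries and no block, limma called SYT7 in no comparison of lines. With the block it was called higher in the KO guide 1 line, at 0.79 (adjusted p = 0.0418, from 0.0418 to 0.856 over the 17 alternatives). It was called lower in the KO-labelled guide 2 line, at -0.91 (adjusted p = 0.0199, from 0.0199 to 0.953). Between the KO-labelled lines it was lower in the KO-labelled guide 2 line by -1.70 with the block (adjusted p = 0.00178, from 0.00178 to 0.582), and this was also called without replicate 1 of that line (adjusted p = 0.0440).

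EHD1, an ATPase of the endocytic recycling compartment, was higher in the KO-labelled libraries. Its values were 1311 and 1743 for control line 1, 2065 and 1614 for control line 2, 2937 and 3492 for the KO guide 1 line, and 3201 and 2144 for the KO-labelled guide 2 line. The arms did not overlap, but the lowest KO-labelled library, 2144, was close to the highest control, 2065. EHD1 rose by 0.95 on the log2 scale in the KO guide 1 line (SE 0.20, limma adjusted p = 0.0272), 1.91 times the mean of the controls. In the KO-labelled guide 2 line the difference was 0.66 (SE 0.20, adjusted p = 0.0666), and the blocked fit called it (adjusted p = 0.0120, from 0.0120 to 0.303 over the alternatives). The KO guide 1 call was lost in the fits without control line 1 replicate 1, control line 2 replicate 2 or either KO guide 1 library (adjusted p up to 0.224).

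Replicate 2 of the KO-labelled guide 2 line had 13.8% of its reads on mitochondrial genes, where the other 7 had 4.67% to 9.05%. Without it, EHD1 was called in the KO-labelled guide 2 line (adjusted p = 0.0349), along with DYSF, VPS37A, CHMP7 and CAPN1. EHD2, the EHD protein that holds caveolae at the surface, ran from 3723 to 6374 and was not called between lines. Per kilobase, EHD1 was 18.1% to 25.6% of the 2 EHD genes in the control libraries and 28.1% to 35.3% in the KO-labelled ones.

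**Figure D3:**
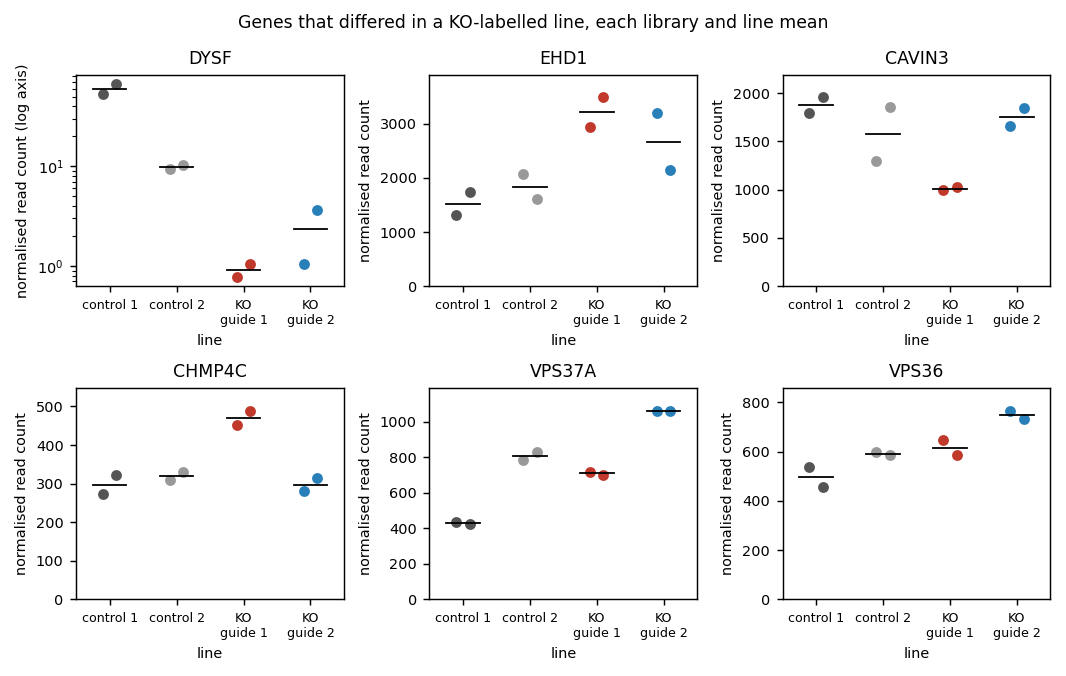
Normalised read counts of the 6 genes called in a KO-labelled line against both controls; points are libraries, with replicate 1 left of replicate 2, and bars are line means. The DYSF axis is logarithmic and the others start at 0. DYSF sits at 0.783 to 3.62 in the KO-labelled libraries and 9.46 to 66.6 in the controls; CAVIN3 is low and CHMP4C high in the KO guide 1 line alone.

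The caveolar coat was the most abundant group of the list. Per kilobase of the principal transcript, CAVIN1, the coat protein without which caveolae do not form, had the highest level of the 40 genes at 5202 ± 902 (SD, n = 8 libraries). CAV1, the membrane-embedded scaffold, followed at 5068 ± 513.1, within that spread. By the union of annotated exons in place of the principal transcript, these 2 genes also ranked highest. CAVIN1 did not differ beyond its spread between any pair of lines, and line means ran from 19482 to 20457 normalised read counts. CAV2 ran from 3927 in control line 1 to 5461 in the KO-labelled guide 2 line, with the arms overlapping, and was called by the replicate block alone (0.28 in that line, adjusted p = 0.0487, from 0.0487 to 0.421 over the alternatives).

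CAVIN3, a coat protein that regulates caveolar dynamics and binds protein kinase C delta, separated the 2 KO-labelled lines. Its values were 1794 and 1958 for control line 1, 1299 and 1859 for control line 2, 997.4 and 1027 for the KO guide 1 line, and 1665 and 1849 for the KO-labelled guide 2 line. Both KO guide 1 libraries were below the other 6, which overlapped. CAVIN3 fell by 0.75 on the log2 scale in the KO guide 1 line (SE 0.15, limma adjusted p = 0.0245), to 0.586 of the control mean. The line labelled KO guide 2 was higher than the KO guide 1 line by 0.79 (SE 0.18, adjusted p = 0.0344) and differed from the controls by 0.04. The difference between the KO-labelled lines was not called without either library of control line 1 or of the KO guide 1 line, or without replicate 2 of the KO-labelled guide 2 line (adjusted p up to 0.185). The fall was not called in the fits without either library of control line 1 or of the KO guide 1 line (adjusted p up to 0.178). Of CAVIN3's annotated exon bases 33.3% are shared with an antisense gene, and the sources used here do not say whether reads were counted by strand, so its counts are uncertain to that extent.

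ESCRT-I, the heterotetramer that binds ubiquitinated cargo and ALIX and carries 1 of several VPS37 subunits, had the lowest adjusted p of the list in the KO-labelled guide 2 line, for VPS37A. VPS37A stood at 434.0 and 426.4 for control line 1, 781.2 and 828.2 for control line 2, 718.7 and 698.1 for the KO guide 1 line, and 1062 and 1059 for the KO-labelled guide 2 line. The 2 libraries of each line lay close together and no lines overlapped, with both control lines on either side of the KO guide 1 line. VPS37A rose by 0.85 in the KO-labelled guide 2 line against both controls (SE 0.11, limma adjusted p = 0.00279), and this was called in all 17 alternatives. The same gene was higher by 0.90 in control line 2 than in control line 1 (SE 0.13, adjusted p = 0.0121) and by 0.58 in the KO-labelled guide 2 line than in the KO guide 1 line (SE 0.13, adjusted p = 0.0320). The control difference was lost in each fit without a control library (adjusted p up to 0.141). That between the KO-labelled lines was lost without either library of control line 1 or of a KO-labelled line (adjusted p up to 0.208).

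The make-up of the VPS37 subunits moved with it. Per kilobase, VPS37A was 18.1% ± 1.37 of the 3 VPS37 genes in control line 1, 28.3% ± 1.98 in control line 2, 25.9% ± 1.36 in the KO guide 1 line and 39.7% ± 3.46 in the KO-labelled guide 2 line (SD, n = 2 libraries each). VPS37B ran from 616.9 to 978.2 and was lowest in both libraries of the KO-labelled guide 2 line, at 721.9 and 616.9. Its difference from the controls, -0.43, was called with the replicate block (adjusted p = 0.0145, from 0.0145 to 0.253 over the alternatives). Of VPS37B's annotated exon bases 36.0% are shared with other annotated genes, so its counts and the VPS37 shares are uncertain to that extent. VPS37C stayed between 264.4 and 360.9. The core subunits TSG101, which binds the PTAP-type motifs of cargo adaptors, and VPS28 ran from 641.7 to 790.1 and from 614.3 to 857.2, and neither was called.

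**Figure D4:**
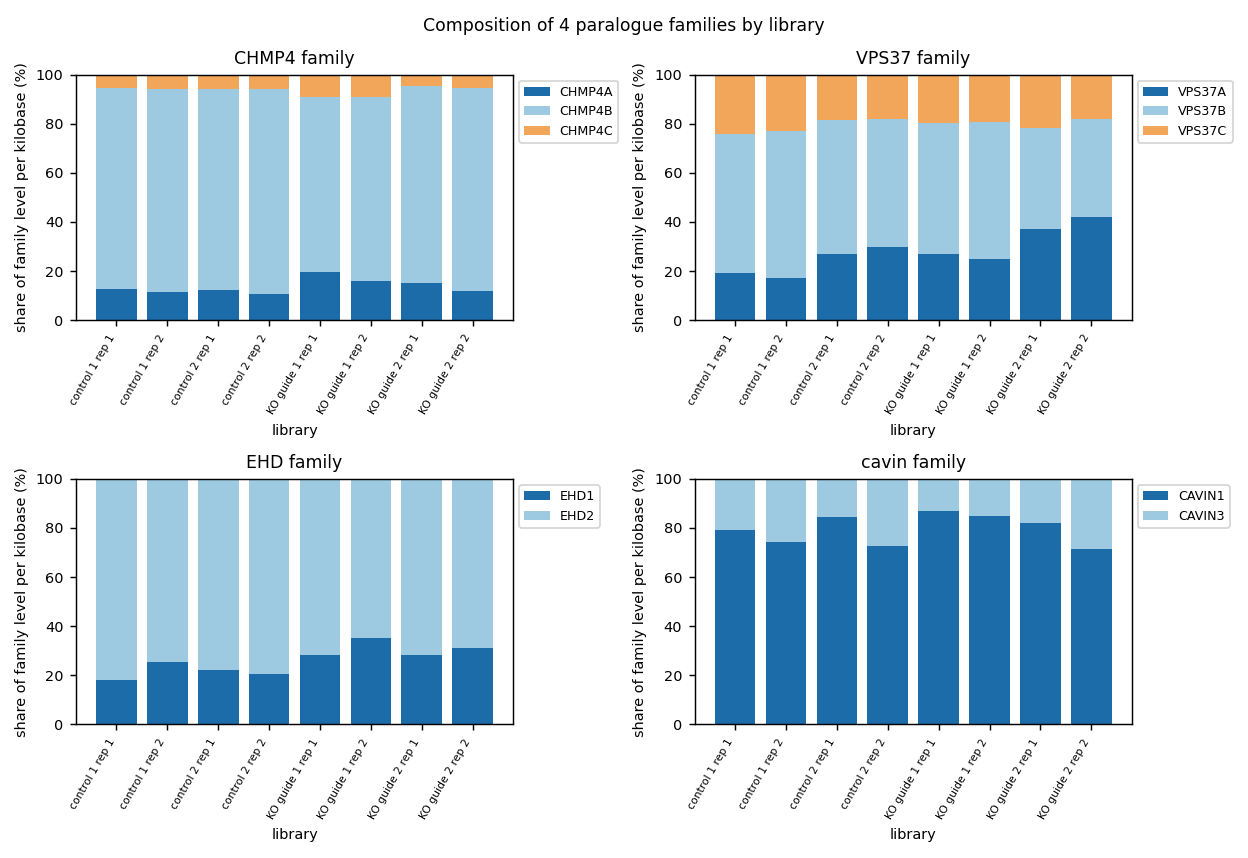
Share of each paralogue in the summed level per kilobase of its family, by library, for the CHMP4, VPS37, EHD and cavin families. The VPS37A share runs from 17.1% in control line 1 to 42.2% in the KO-labelled guide 2 line, and the CHMP4C share is 9.03% and 9.34% in the KO guide 1 line and at most 5.84% elsewhere.

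ESCRT-0 and ESCRT-II differed little. HGS is the ESCRT-0 subunit that binds ubiquitin and the endosomal lipid PI3P. It stayed between 4090 and 4652, and 23.5% of its exon bases are shared with antisense genes. Its partner STAM was 894.6 to 961.0 in the controls and 1042 to 1097 in the KO-labelled libraries, so the arms did not overlap, but the difference of 0.24 (SE 0.12) was not called (limma adjusted p = 0.497). STAM2 overlapped between arms, from 616.4 to 864.1. In ESCRT-II, VPS36, the subunit that binds ubiquitin and PI3P through its GLUE domain, was 538.8 and 456.6 for control line 1 and 597.1 and 585.7 for control line 2. It was 645.9 and 585.0 for the KO guide 1 line and 767.4 and 733.9 for the KO-labelled guide 2 line, which was above all other libraries. VPS36 rose there by 0.47 (SE 0.12, limma adjusted p = 0.0439), a call that was lost in each of the 8 fits that left out 1 library (adjusted p 0.0695 to 0.137). SNF8 ran from 1613 to 2372 and VPS25 from 1305 to 1891, with no call between lines.

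ESCRT-III is the filament-forming group that does the membrane cutting. Of its 12 genes limma called 1 in the KO guide 1 line (7.01% of all genes) and 0 in the KO-labelled guide 2 line (11.2%). In the latter line 4 of 12 had an unadjusted p under 0.05, and DESeq2 called CHMP2A and CHMP7. In the KO guide 1 line CHMP4A, CHMP4B, CHMP4C, CHMP7 and IST1 had an unadjusted p under 0.05, and DESeq2 called CHMP4A and CHMP4C. The shares of all genes for these unadjusted and DESeq2 results are not given here, so they have no background beside them. The gene called by limma was CHMP4C, the CHMP4 paralogue that acts in the abscission checkpoint of dividing cells. It stood at 272.1 and 322.4 for control line 1, 308.9 and 330.8 for control line 2, 451.7 and 489.6 for the KO guide 1 line, and 280.3 and 313.9 for the KO-labelled guide 2 line. Both KO guide 1 libraries were above the other 6, which overlapped. CHMP4C rose by 0.61 in the KO guide 1 line (SE 0.14, limma adjusted p = 0.0369), 1.53 times the control mean, and was lower by -0.66 in the KO-labelled guide 2 line than in it (SE 0.16, adjusted p = 0.0446). The first call was lost in each fit without a control or a KO guide 1 library (adjusted p up to 0.256), and the second in all 8 that left out 1 library (0.0560 to 0.256). CHMP4C shares 13.4% of its exon bases with the antisense gene ZFAND1.

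CHMP4B, the main CHMP4 subunit at wounds, made up 71.0% to 83.8% of the CHMP4 genes per kilobase, and its level ran from 3031 to 4275. With the block it was called higher in the KO-labelled guide 2 line than in the KO guide 1 line, at 0.35 (adjusted p = 0.0350, from 0.0350 to 0.542 over the alternatives), and without it in no comparison of lines. CHMP4A was 452.1 to 502.5 in the controls and 510.6 to 708.5 in the KO-labelled libraries, without overlap and without a limma call in either line with all 8 libraries and no block. With the block it was called in the KO guide 1 line at 0.51 (adjusted p = 0.00616, from 0.00616 to 0.362 over the alternatives), as it was with DESeq2 and without either library of the KO-labelled guide 2 line. Since 68.8% of its exon bases are shared with other annotated genes, its counts are uncertain. IST1, which is recruited late with VPS4, was 1744 to 2147 in the controls and 2214 to 2493 in the KO-labelled libraries. Its blocked difference of 0.36 in the KO guide 1 line was called (adjusted p = 0.0115, from 0.0115 to 0.326). CHMP1B, which assembles with IST1, was 686.6 to 838.5 and 882.7 to 1038, again without overlap. It was called in the KO-labelled guide 2 line with the block, at 0.39 (adjusted p = 0.0166, from 0.0166 to 0.195). CHMP1B shares 18.1% of its exon bases with the antisense gene CHMP1B-AS1.

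CHMP2A and CHMP7 were called against the controls in both KO-labelled lines with the replicate block, and in neither by limma with all 8 libraries, the size factors and no block. CHMP2A, which with CHMP3 caps and recruits VPS4 to CHMP4 filaments, was 2029 and 2421 for control line 1 and 2206 and 3406 for control line 2. It was 3023 and 3410 for the KO guide 1 line and 3457 and 4384 for the KO-labelled guide 2 line, so control line 2 replicate 2 overlapped the KO-labelled libraries. Its log2 differences were 0.38 and 0.66, with limma adjusted p-values of 0.259 and 0.0565, and blocked ones of 0.0204 and 0.000698. CHMP7, the subunit that acts at the nuclear envelope, was 556.4 to 961.0 in the controls and 829.3 to 1300 in the KO-labelled libraries. Its log2 differences were 0.48 and 0.62, with adjusted p-values of 0.194 and 0.0915, and blocked ones of 0.0278 and 0.00717. Over the 17 alternatives of each line these ran up to 0.637 and 0.237 for CHMP2A and up to 0.525 and 0.410 for CHMP7. In the KO-labelled guide 2 line both were also called with DESeq2, CHMP2A with equal library totals and without control line 2 replicate 2, and CHMP7 without control line 2 replicate 1 or replicate 2 of the KO-labelled guide 2 line.

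Of the remaining ESCRT-III genes, CHMP1A ran from 2981 to 4478, CHMP2B from 465.6 to 742.9, CHMP5 from 1442 to 1994 and CHMP6 from 622.9 to 878.8, with the arms overlapping and no call in a KO-labelled line. CHMP1A and CHMP2B were lower in control line 2 than in control line 1 with the replicate block alone. CHMP6 shares 21.5% of its exon bases with an antisense gene. CHMP3 was read at only 4.83 to 14.7, rank 39 of 40 per kilobase of the principal transcript, above DYSF alone. By the union of annotated exons it ranked 40, below DYSF. An annotated readthrough transcript, RNF103-CHMP3, shares part of its exons and was counted at 1.72 to 10.4. Of CHMP3's annotated exon bases 12.2% are shared with the readthrough or an antisense gene. Reads in the shared part cannot be told apart, so the level of CHMP3 is uncertain.

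The ATPases that take ESCRT-III apart were not called between lines. VPS4A ran from 1150 to 1907 and VPS4B from 714.6 to 938.8, and VTA1, the cofactor that stimulates VPS4, was among the steadiest genes at 944.2 to 1073. Per kilobase VPS4A was 55.7% to 66.1% of the 2 ATPase genes. Since 36.4% of its annotated exon bases are shared with other annotated genes, its counts are uncertain to that extent. PDCD6, which encodes the calcium sensor ALG-2, was 1717 to 2255 in the controls, 1979 and 1981 for the KO guide 1 line, and 2382 and 2990 for the KO-labelled guide 2 line. Only the latter was above all controls, by 0.47 (limma adjusted p = 0.0765, called with the block at 0.00425, from 0.00425 to 0.315 over the alternatives), and this was also called with DESeq2 and without control line 2 replicate 2. PDCD6IP, which encodes ALIX, set control line 1 apart: it was 2611 and 2655 there and 1744 to 2050 in the other 6 libraries. Control line 2 differed from control line 1 by -0.54 (SE 0.12, adjusted p = 0.0562), called with the block at 0.00572 (0.00572 to 0.326 over the alternatives), with DESeq2 and without either library of the KO-labelled guide 2 line.

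The conventional calpains were abundant, and limma with all 8 libraries and no block called none of the 3 in a comparison of lines. CAPN2, the m-calpain catalytic subunit, ranked 3 of the 40 genes per kilobase and made up 78.2% to 83.9% of the 2 catalytic genes. The small subunit CAPNS1 ranked 4. By the union of annotated exons CAPN2 ranked 5 and CAPNS1 again 4. CAPN1 was 2256 to 2768 in the controls and 2408 to 3619 in the KO-labelled libraries, and CAPN2 was 10119 to 13841 and 11257 to 17240. With the block both were called higher in the KO guide 1 line, CAPN1 by 0.41 (adjusted p = 0.0238, 0.0238 to 0.472 over the alternatives) and CAPN2 by 0.37 (0.0362, 0.0362 to 0.649). CAPN1 was also called there without either library of the KO-labelled guide 2 line, and in the latter line without its replicate 2. CAPNS1 was 7197 and 6507 for the KO-labelled guide 2 line, above the 4720 to 5751 of the other 6 libraries. Its difference from the controls was 0.42 (limma adjusted p = 0.0615, called with the block at 0.0114, from 0.0114 to 0.197), and this was also called with DESeq2.

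A further 3 lists give the surroundings of these genes. Of 13 other ESCRT genes and partners, all tested, 0 were called by limma in the KO guide 1 line (7.01% of all genes). There 2 had an unadjusted p under 0.05 and DESeq2 called 1, but the shares of all genes for these 2 counts are not given here. In the KO-labelled guide 2 line 1 was lower (6.67% of all genes): MVB12B, an alternative ESCRT-I subunit, at -1.03 (SE 0.24, limma adjusted p = 0.0287). Between the KO-labelled lines, MVB12A was higher at 0.57 and SPAST, the microtubule-severing partner of ESCRT-III, was lower at -0.87 in the KO-labelled guide 2 line (adjusted p = 0.0438 and 0.0256). The median log2 fold change of the list was 0.02 in the KO guide 1 line and -0.10 in the other.

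Of 23 other genes of repair, lysosomal exocytosis and coats, 17 were tested, and 4 were called in the KO guide 1 line (7.01% of all genes) and 2 in the KO-labelled guide 2 line (11.2%). SMPD1, the acid sphingomyelinase released from lysosomes at wounds, was 801.9 to 1005 in the controls, 493.2 and 508.3 for the KO guide 1 line, and 681.5 and 636.2 for the KO-labelled guide 2 line. The arms did not overlap. SMPD1 fell by 0.85 (SE 0.12, limma adjusted p = 0.00602) and by 0.46 (SE 0.12, adjusted p = 0.0449). STX4, a plasma membrane SNARE, rose by 0.51 and 0.44 (adjusted p = 0.0354 and 0.0418). In the KO guide 1 line, ANO6, the lipid scramblase TMEM16F, rose by 0.60 (adjusted p = 0.0183) and CAST, the calpain inhibitor calpastatin, by 0.51 (adjusted p = 0.0307). ANO6 was lower by -0.62 in the KO-labelled guide 2 line than in the KO guide 1 line (adjusted p = 0.0290); for CAST that difference was not called. The list's medians were 0.26 and 0.05.

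Of 11 annexins other than ANXA4, 10 were tested. ANXA10 fell by 2.18 in the KO guide 1 line (SE 0.27, limma adjusted p = 0.00295) and by 1.72 in the KO-labelled guide 2 line (SE 0.27, adjusted p = 0.00595). It was 171.0 and 190.3 for control line 1 and 472.3 and 913.2 for control line 2, and it was 61.8 to 107.4 in the KO-labelled libraries. The control lines differed from each other by 1.86 (adjusted p = 0.0278). ANXA3 rose by 0.51 and 0.48 (adjusted p = 0.0282 and 0.0239), with 2142 to 3455 in the controls and 3713 to 3839 in the KO-labelled libraries. ANXA6, which forms part of the repair cap, fell by 0.58 in the KO-labelled guide 2 line (adjusted p = 0.0158). ANXA1 was lower by -0.56 in that line than in the KO guide 1 line (adjusted p = 0.0462). With the arms compared, 0 genes of these 3 lists were called by limma; at an unadjusted p under 0.05 there were 0 of 13 ESCRT genes and partners, 4 of 17 genes of the repair list and 3 of 10 annexins, beside 11.5% of all genes. SMPD1 and ANXA10 had the lowest p-values (adjusted p = 0.147 and 0.159).

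The replicate number, whose meaning the labels do not give, separated several genes that were steady between lines. In replicate 2 against replicate 1, within lines, 8 of 40 genes were called by limma, beside 17.6% of all genes. The 6 lower ones (8.62% of all genes were lower) were SYT7 by -1.26 (SE 0.21, adjusted p = 0.00338), CAVIN1 by -0.43, VPS4A by -0.42, EHD2 by -0.36, MYOF by -0.35 and CAPN2 by -0.34. CHMP2A was higher by 0.35 and VPS25 by 0.29 (8.97% of all genes were higher). With equal library totals, VPS25 was not called, and the split was 1 higher and 6 lower in place of 2 and 6. Of the 40 genes, 9 were higher in replicate 2 in all 4 lines, beside 20.2% of all genes, and 11 were lower in all 4, beside 19.3%.

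VPS4A was lower in replicate 2 of every line, with 1740 against 1431 in control line 1, 1602 against 1150 in control line 2, 1907 against 1454 in the KO guide 1 line and 1867 against 1296 in the KO-labelled guide 2 line. CAVIN1, steady between lines, was 22485 against 18428, 22940 against 16024, 21387 against 18497 and 24579 against 14975 in the same order. Replicate 1 was the higher in every line for both genes. The calls of SYT7 and VPS4A held in all 8 fits that left out 1 library. The count of 8 fell to 2, these same genes, without any 1 library of control line 2 or of the KO-labelled guide 2 line, the lines whose replicate 2 had 9.05% and 13.8% mitochondrial reads. The part of the mitochondrial share in these differences was not tested.

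**Figure D5:**
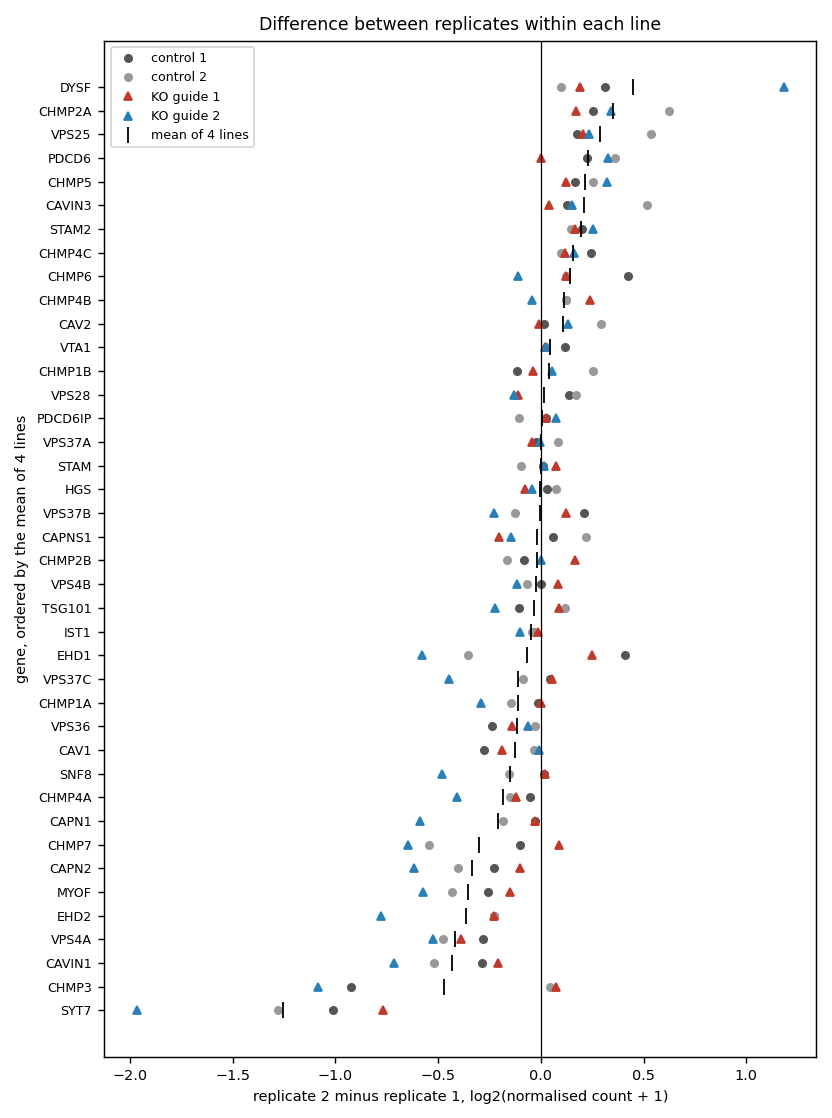
Difference of replicate 2 minus replicate 1 in log2(normalised count + 1) for each of the 40 genes, ordered by the mean of the 4 lines; each point is a line and the bar is their mean. SYT7 lies left of 0 in all 4 lines with a mean of -1.26, and CHMP2A and VPS25 lie right of 0 in all 4.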

How the data were processed

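Poly(A) RNA of 8 libraries was analysed. The authors deposited a size-factor-normalised signal per Entrez gene; the submitters' processing notes name fastp 0.23.2, HISAT2 2.2.1, featureCounts 2.0.1 and DESeq2 2.11.40.8, and build GRCh38. The deposited values were whole reads divided by 1 factor per library (100% whole within 1e-06), so reads were recovered for edgeR 4.0.16 and DESeq2 1.42.0 as alternatives. The main test was limma 3.58.1 in R 4.3.3 with trend on log2(value + 1). The comparison of arms used a correlation within lines of 0.330; other comparisons fitted a mean per line, and all 8 libraries shared 1 spread. Same-numbered replicates deviated together across genes in all 6 pairs of lines (r 0.285 to 0.501, over the limit of 0.1). The replicate number was therefore fitted as a block among the alternatives. The main comparisons of lines and of arms left this pairing out. The labels do not say what the numbers mark. No replicates were duplicates (chi-square per degree of freedom 18.1 to 70.6). IDs were matched to symbols for 27745 genes; the other 650 held 0.0332% of reads. Lengths and overlaps came from GENCODE v29. Statistics are given for called genes, up to 6 per comparison by size, or for the 3 lowest p-values where fewer than 3 were called; other genes were named with values after these were seen. The members and lists were chosen with earlier results of these data known. Scripts were tested on simulated data.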

Additional observations from a re-analysis of the deposited data

Results flagged for a closer look

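In 6 of 80 groups of 4 libraries (each gene in the control and in the KO-labelled libraries), 1 library stood far from the other 3, by Dixon's criterion at the 95% level. Chance would give about 1 in 20 groups of 4 independent libraries. Each group here held 2 lines of 2 libraries, so that rate does not strictly apply. Among the controls the far values were STAM at 961.0 in control line 2 replicate 1, VPS4B at 741.0 in control line 2 replicate 2 and CAV1 at 16108 in control line 1 replicate 1. Among the KO-labelled libraries they were CHMP2B at 615.1 in KO guide 1 replicate 2, and DYSF at 3.62 and CAV2 at 5461 in replicate 2 of the KO-labelled guide 2 line. For DYSF that value is 3 reads, where the other 3 libraries have 1 each.

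The effect in the 2 KO-labelled lines against the same controls differed for 3 genes, tested by the contrast between these lines. The KO-labelled guide 2 line minus the KO guide 1 line was 0.79 for CAVIN3, 0.58 for VPS37A and -0.66 for CHMP4C on the log2 scale, with both libraries of one line outside those of the other for each.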

How the results depend on the processing

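Of the 6 counts of called genes, each was recomputed with pseudocounts of 0.1 and 10, other filters, equal library totals, TMM scaling, edgeR, DESeq2 and without each library in turn, and all but the replicate comparison with a replicate block. With the replicate block the counts became 12 for the KO guide 1 line (from 4), 12 for the KO-labelled guide 2 line (from 3), 5 between the controls (from 1) and 9 between the KO-labelled lines (from 3); the block lost no call and left the arms at 0. For the arms compared, the count of 0 became 3 with edgeR, 7 with DESeq2 and 3 with a mean per line, and stayed 0 with line means and without any 1 library. DESeq2 gave 8 for the KO-labelled guide 2 line. Between the controls the count was 2 with a pseudocount of 10 and with edgeR, and 3 with DESeq2. The replicate comparison gave 0 with no line term. Apart from the fits whose shares of all genes are given above, no share of all genes stands beside these counts or those that follow. Whether they moved more than the counts of all genes was not tested. Leaving out 1 library gave 1 to 7 for the KO guide 1 line, 2 to 5 for the KO-labelled guide 2 line, 0 to 3 between the controls, 0 to 2 between the KO-labelled lines and 2 to 10 for the replicates; a line left with 1 library was assumed to vary like the others. Of the single-gene values, 667 kept direction and side of the threshold, 62 crossed into it, 75 out of it, and 1 turned: SYT7 in the KO-labelled guide 2 line was 0.071 without that line's replicate 2 (adjusted p = 0.953) and -1.90 without its replicate 1. Depth limits DYSF, CHMP3 and SYT7, read at 1 to 64, 4 to 16 and 11 to 152 reads a library.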
